A study of Mus musculus with 7 samples.

Results

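The genes examined here encode secreted proteins of the cartilage matrix other than collagens and aggrecan: lubricin (*Prg4*), clusterin (*Clu*), the cartilage intermediate layer proteins (*Cilp* and *Cilp2*), cartilage oligomeric matrix protein (*Comp*), matrilins 1 to 4 (*Matn1*, *Matn2*, *Matn3*, and *Matn4*), and fibronectin (*Fn1*). They were taken as the rows of the deposited count table whose gene name is exactly 1 of these symbols, which gave 10 of 55401 genes. Each symbol stood on 1 row, and all 10 passed the filter on low counts that left 16429 genes for testing. The rule itself uses no measured value, but the genes were picked with earlier results of these data known. RNA-Seq had been performed on knees of 10-week-old male C57BL/6J mice whose right knee underwent DMM, a surgery that destabilizes the medial meniscus and leads to OA, and which were euthanized 2 weeks later. By their labels, 4 samples came from WT mice and 3 from *Trpc1-/-* mice, which the Methods give as Trpc1tm1Lbi mice. This allele lacks an exon of the transmembrane region in every cell of the body, and WT controls came from the same colony. By the Methods, each sample pooled the tissue of 2 to 3 mouse knees. The labels name cartilage of the femoral head and tibial plateau, to which the Methods add subchondral bone. All 7 samples were operated knees, so the comparison is between genotypes after DMM and holds no sham knee.

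Articular cartilage is built in layers. Cells at the surface secrete lubricin, a mucin-like glycoprotein that lowers friction between the joint surfaces, and clusterin, an extracellular chaperone. CILP, a protein known to bind TGF-β1 and to oppose IGF-1 signaling, is best known from the middle layer. COMP and the matrilins are adaptor proteins that link collagen fibrils, small proteoglycans, and aggrecan to one another, and matrilin-1 and matrilin-3 are typical of growth plate cartilage. Fibronectin is a matrix glycoprotein to which cells attach through integrins, and it accumulates in OA cartilage.

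The sequence before the transcription start is given for 3 of the genes, since *Cilp* differed most clearly between the genotypes, and *Matn1* and *Matn3* varied together from sample to sample. The sequences are the 250 bases before the start in RefSeq (GRCm38.p6), where 5 of the 10 genes had an entry. All 3 genes lie on the plus strand, and the windows are chr9:65264930-65265179 for *Cilp*, chr4:130944135-130944384 for *Matn1*, and chr12:8947679-8947928 for *Matn3*. Capitals mark matches to the motifs searched.
Cilp: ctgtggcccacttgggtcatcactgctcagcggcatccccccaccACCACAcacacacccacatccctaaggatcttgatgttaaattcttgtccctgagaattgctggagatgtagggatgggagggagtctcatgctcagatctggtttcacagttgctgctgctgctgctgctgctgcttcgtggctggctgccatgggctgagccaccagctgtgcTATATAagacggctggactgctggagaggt
Matn1: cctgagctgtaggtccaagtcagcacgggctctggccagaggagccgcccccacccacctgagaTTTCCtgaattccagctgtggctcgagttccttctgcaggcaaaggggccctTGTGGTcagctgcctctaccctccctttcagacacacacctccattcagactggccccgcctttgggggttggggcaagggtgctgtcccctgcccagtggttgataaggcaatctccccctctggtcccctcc
Matn3: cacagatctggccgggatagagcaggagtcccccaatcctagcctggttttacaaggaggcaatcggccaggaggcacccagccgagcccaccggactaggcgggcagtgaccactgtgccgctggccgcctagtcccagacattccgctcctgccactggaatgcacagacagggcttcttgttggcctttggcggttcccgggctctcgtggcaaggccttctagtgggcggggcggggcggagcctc
The motifs were chosen after these sequences had been seen and were searched on both strands. They were TATANA (TATA box), ACAAAG (SOX), TGTGGT (RUNX), TGANTCA (AP-1), and GGAAA (NFAT), and none overlapped another in the 3 windows printed. The *Cilp* window holds TATATA between 30 and 25 bases before the start, a TATA match that 22.6% of 32851 promoter windows of the same length also hold, and a RUNX match on the minus strand, ACCACA, 205 to 200 bases before it. The *Matn1* window holds a RUNX match, TGTGGT, 134 to 129 bases before the start and an NFAT match on the minus strand, TTTCC, 186 to 182 bases before it. RUNX matches stood in 14% and NFAT matches in 55.6% of all windows. SOX matches stood in 16.5% and AP-1 matches in 6.75% of all windows, and neither occurred in the 3 windows printed. The *Matn3* window held none of the motifs, which says only that these letters are not in it.

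Counts on genes summed to between 52142451 and 118254070 per sample, with the lowest total in WT replicate 1, and 3 counts, taken as the floor of detection, equalled 0.0254 to 0.0575 CPM. CPM are counts scaled to a fixed library total, and those given here were normalized by TMM. WT replicate 1 stood apart from the other samples. Its correlation with them across genes was between 0.941 and 0.962 in log2 CPM, against 0.976 or more for every other pair. *Trpc1* was lower in *Trpc1-/-* samples, at 3.35, 3.79, and 3.04 CPM, than in WT samples, at 4.83, 4.55, 4.77, and 4.33 CPM, with an adjusted P of 0.407 by edgeR and 0.05001 by DESeq2. Counts cover the whole gene, not the deleted exon. Markers of several tissues were present in every sample. The summed level of 8 chondrocyte markers, which include *Col2a1*, *Acan*, and *Sox9*, lay between 5031 and 5230 CPM in WT samples. It was 2652, 5438, and 2977 CPM in *Trpc1-/-* replicates 1 to 3, so that by this sum 1 *Trpc1-/-* sample was at the WT level. *Col2a1* alone averaged 2977 CPM in WT and so weighs most in the sum. All 8 markers had a lower mean in *Trpc1-/-* samples, as did 51.9% of all genes tested. Of the 8 markers, 1 did not overlap between the groups, *Chad*, at 135.7 CPM or less in *Trpc1-/-* and 157.4 CPM or more in WT samples. Among all genes tested, 6.42% were lower without overlap. The sum of 8 erythroid markers lay between 18530 and 35710 CPM in WT and between 41250 and 56640 CPM in *Trpc1-/-* samples, without overlap, and all 8 markers were higher. The sums of 8 osteoblast markers (7674 to 13810 and 6037 to 10410 CPM), 10 synovial fibroblast and tendon markers (257 to 463 and 275 to 309 CPM), 6 muscle markers (55.9 to 1138 and 344 to 954 CPM), and 5 endothelial markers (175 to 191 and 173 to 183 CPM) overlapped between WT and *Trpc1-/-* samples. The sums of 5 macrophage (372 to 529 and 509 to 582 CPM), 5 megakaryocyte (355 to 706 and 526 to 668 CPM), 6 neutrophil (4796 to 15620 and 11390 to 14980 CPM), 4 adipocyte (53.6 to 75.7 and 74.6 to 92.8 CPM), and 5 B cell markers (111 to 181 and 176 to 202 CPM) overlapped as well, and no marker was at 0 in every sample. The adipocyte overlap rested on WT replicate 1, as the other WT samples were at 61.9 CPM or less. Each muscle, macrophage, neutrophil, adipocyte, and B cell marker had a higher mean in *Trpc1-/-* samples. In a bulk sample of this kind, fewer cells of a type and less RNA per cell cannot be told apart.

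The levels of the 10 genes were first ordered per length, as CPM per kilobase of annotated exon. In WT samples, *Fn1* was highest at 257 ± 41.1 CPM per kilobase (SD, n = 4) and ranked 153 among the tested genes. It was followed by *Comp* at 195 ± 29.8, *Cilp* at 133 ± 22.3, and *Prg4* at 123 ± 33.0 CPM per kilobase, which ranked 191, 261, and 274. *Clu* was at 56.0 ± 6.22 and *Matn3* at 29.7 ± 9.90 CPM per kilobase. *Cilp2* at 12.4 ± 2.25 and *Matn2* at 5.28 ± 1.27 CPM per kilobase came next, and *Matn4* at 1.65 ± 0.734 and *Matn1* at 1.46 ± 0.603 CPM per kilobase closed the order, the latter at rank 12591. The set thus spans genes among the most abundant of the tissue and genes near its detection filter. The order was the same per kilobase of coding sequence. The ranges of the 4 WT samples were separate between *Prg4* and *Clu*, *Clu* and *Matn3*, *Cilp2* and *Matn2*, and *Matn2* and *Matn4*. They overlapped between *Fn1* and *Comp*, *Comp* and *Cilp*, *Cilp* and *Prg4*, *Matn3* and *Cilp2*, and *Matn4* and *Matn1*. Within each sample, however, *Fn1* was above *Comp* in all 4 WT and all 3 *Trpc1-/-* samples. *Comp* was above *Cilp*, and *Matn3* above *Cilp2*, in 3 of 4 WT and in 3 of 3 *Trpc1-/-* samples, and the *Trpc1-/-* ranges of these 3 pairs were separate. In *Trpc1-/-* samples, means followed the same order except that *Prg4*, at 85.3 CPM per kilobase, stood above *Cilp*, at 69.3 CPM per kilobase. *Prg4* was above *Cilp* in 2 of the 3 *Trpc1-/-* samples and in 1 of the 4 WT samples.

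**Figure D1:**
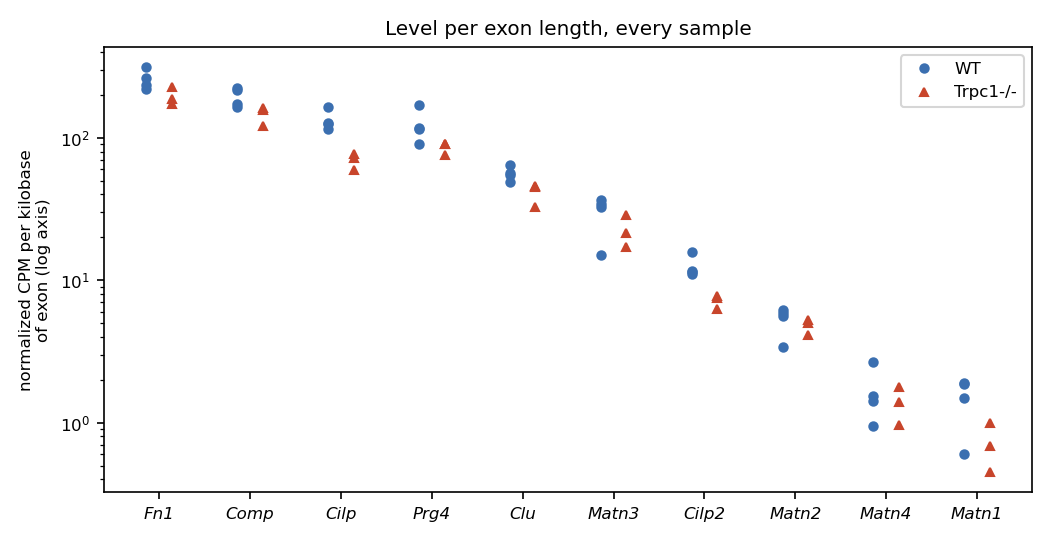
Level of each gene in every sample, as normalized CPM per kilobase of annotated exon on a log axis, with WT samples as circles and *Trpc1-/-* samples as triangles. Genes are ordered by their WT mean, from *Fn1* at 257 to *Matn1* at 1.46 CPM per kilobase, and *Cilp* is the gene of the upper 4 whose groups lie farthest apart.

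Between the genotypes, the mean of each of the 10 genes was lower in *Trpc1-/-* samples, as was that of 51.9% of all genes tested. No member passed the test of edgeR after adjustment over all genes, where the share of genes called lower was 0%. At an unadjusted P under 0.05, 6 of the 10 were lower (*Cilp*, *Cilp2*, *Clu*, *Comp*, *Prg4*, and *Matn1*), against 5.49% of all genes. DESeq2, the tool the study used, called 2 of the 10 lower at an adjusted P under 0.05, *Cilp* and *Cilp2*, against 0.828% of all genes. In 5 of the 10 (*Prg4*, *Clu*, *Cilp*, *Cilp2*, and *Comp*), every *Trpc1-/-* sample lay below every WT sample, which was so for 6.42% of all genes. The median log2 fold change (logFC, *Trpc1-/-* minus WT) of the 10 genes was −0.43, against −0.00881 over all genes tested.

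**Figure D2:**
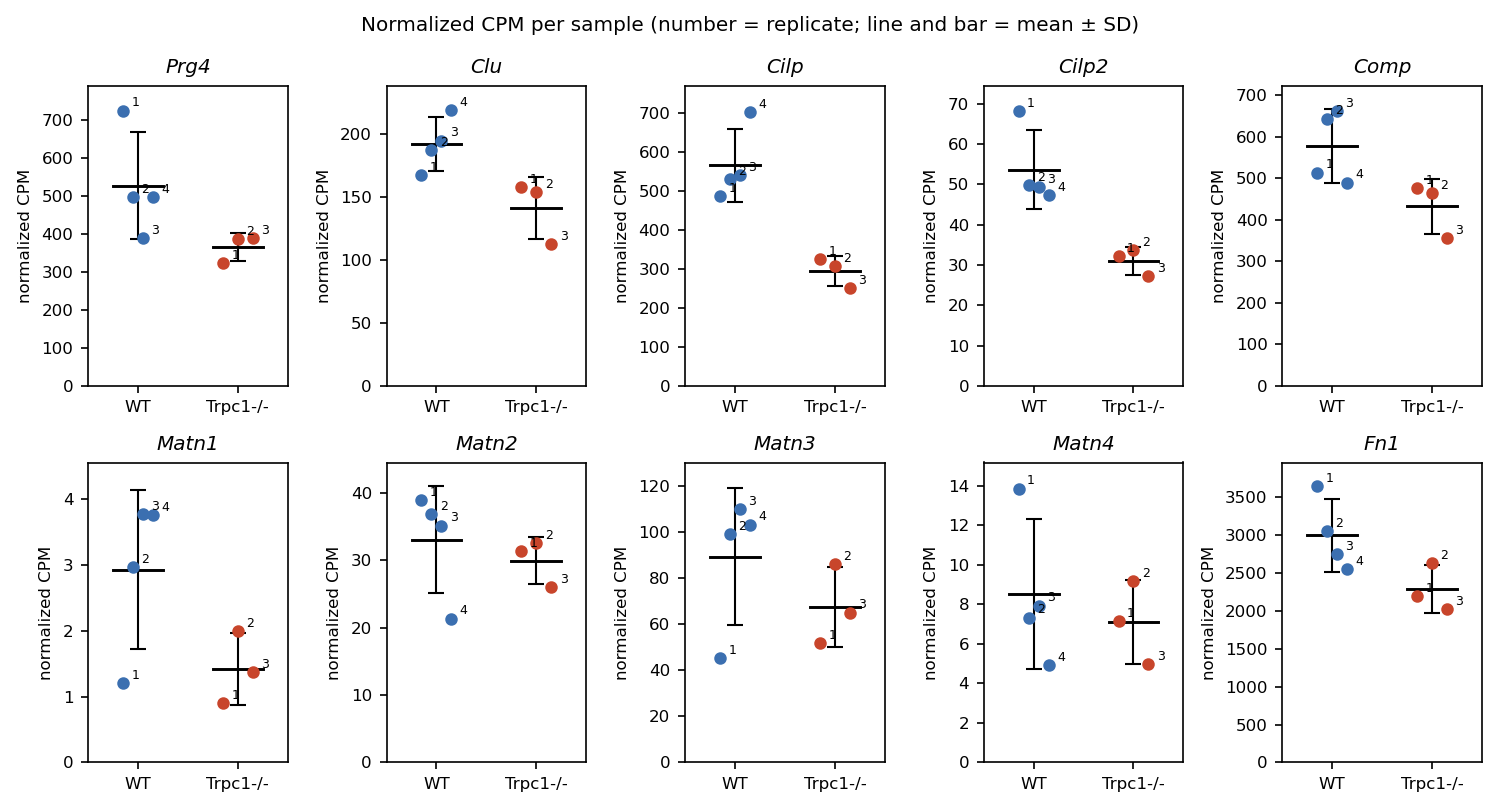
Normalized CPM of each gene in every sample, 1 panel per gene with its own axis from 0, with points numbered by replicate and the line and bar giving the mean and SD of 4 WT or 3 *Trpc1-/-* samples. Groups lie apart in *Cilp* and *Cilp2*, nearly touch in *Prg4* and *Comp*, and overlap in the 4 matrilins and *Fn1*.

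The genes of the cartilage intermediate layer proteins differed most clearly, with the smallest P values of the 10. *Cilp* lies on chromosome 9 (chr9:65265180-65280605, plus strand, GRCm38), 30.4 Mb from the targeted gene on the same chromosome. It was at 487.7, 531.9, 541.5, and 703.8 CPM in WT replicates 1 to 4 and at 324.9, 307.6, and 250.8 CPM in *Trpc1-/-* replicates 1 to 3. All 3 *Trpc1-/-* samples were low, and the highest of them lay 33.4% below the lowest WT sample. It averaged 566 ± 94.7 CPM over the WT samples (SD, n = 4) and 295 ± 38.8 CPM over the *Trpc1-/-* samples (SD, n = 3), a 1.92-fold difference. Its logFC was −0.94 ± 0.16 (SE), with an unadjusted P of 0.000409 that ranked 19 among 16429 genes, an adjusted P of 0.334 by edgeR, and an adjusted P of 4.16e-06 by DESeq2.

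*Cilp2*, the related gene on chromosome 8 (chr8:69880369-69887687, minus strand), codes for a second protein of the family. Its level was 68.1, 49.7, 49.3, and 47.4 CPM in WT replicates 1 to 4 and 32.1, 33.6, and 27.1 CPM in *Trpc1-/-* replicates 1 to 3. WT replicate 1 was high while the other 3 WT samples lay close together, and the highest *Trpc1-/-* sample was 29.0% below the lowest of them. It averaged 53.6 ± 9.71 CPM over the WT samples (SD, n = 4) and 31.0 ± 3.41 CPM over the *Trpc1-/-* samples (SD, n = 3). The logFC was −0.79 ± 0.15 (SE), and edgeR gave an adjusted P of 0.381 and DESeq2 one of 0.000641. The unadjusted P ranked 29 among all genes.

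The chondrocyte marker sum of *Trpc1-/-* replicate 2, at 5438 CPM, was above that of every WT sample, and those of the other 2 *Trpc1-/-* samples were below. *Cilp* in replicate 2 lay between the other 2 *Trpc1-/-* samples, and *Cilp2* lay below every WT sample. Relative to *Col2a1*, one of these markers, the log2 ratio differed by −0.37 for *Cilp* and −0.21 for *Cilp2*, ratios chosen after the values had been seen, and the groups overlapped in both. With the chondrocyte score, the mean log2 CPM of these markers, as a covariate, the logFC was −0.83 ± 0.26 (SE) for *Cilp* and −0.79 ± 0.23 (SE) for *Cilp2*, each with an adjusted P of 1.00 by edgeR. With the erythroid score, made in the same way, it was −1.01 ± 0.26 (SE) for *Cilp*, with an adjusted P of 0.0880 by edgeR, and −0.31 ± 0.13 (SE) for *Cilp2*, with an adjusted P of 0.155. Since the erythroid sums of the groups do not overlap, genotype and erythroid level cannot be told apart. Without WT replicate 1, both genes passed the test of edgeR, with an adjusted P of 0.0469 for *Cilp* and 0.0387 for *Cilp2*, in a fit that called 0.142% of all genes lower. Each sample name in the labels holds a number after the letter M. It was taken here as a mouse number, though the labels do not say what it stands for. By these numbers, the samples form a series of the 1300s and one of the 1700s. All *Trpc1-/-* samples and WT replicates 1 and 2 belong to the 1300s. Within these 5 samples, the logFC was −0.79 ± 0.16 (SE) for *Cilp* and −0.93 ± 0.17 (SE) for *Cilp2*, with an adjusted P of 0.373 by edgeR for both.

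**Figure D3:**
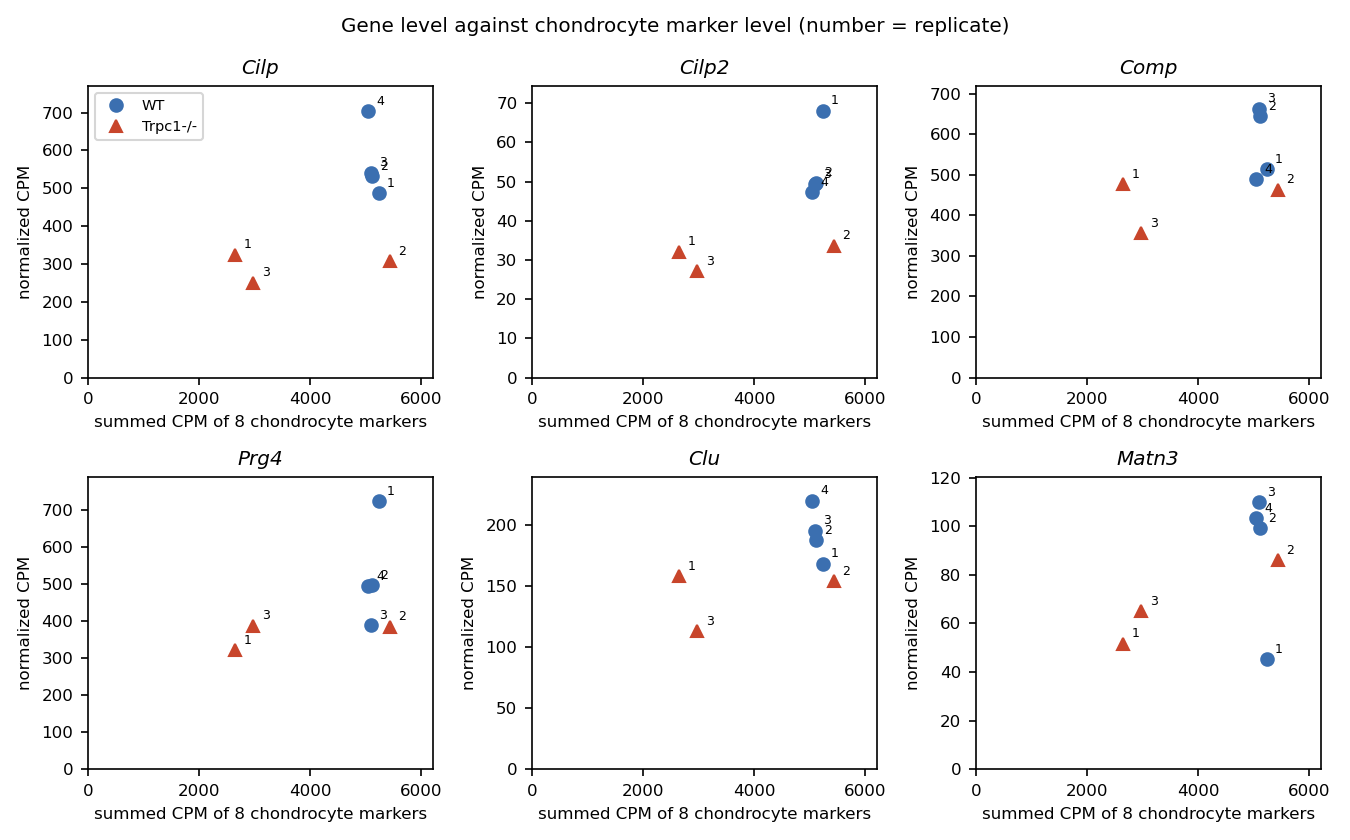
Normalized CPM of 6 of the genes against the summed CPM of 8 chondrocyte markers in the same sample, with WT samples as circles, *Trpc1-/-* samples as triangles, and numbers for replicates. *Trpc1-/-* replicate 2, at 5438 CPM of chondrocyte markers, lies with the other *Trpc1-/-* samples in *Cilp* and *Cilp2*, well below the WT samples, while in *Matn3* it is the highest *Trpc1-/-* sample. In *Prg4*, *Clu*, and *Comp* it also lies below every WT sample.

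The genes typical of surface cells were lower by less. *Prg4* (chr1:150449412-150466165, minus strand) was at 724, 496.9, 389.1, and 495.5 CPM in WT and at 322.6, 385.2, and 387.8 CPM in *Trpc1-/-* samples. The WT samples were widely spread, with WT replicate 1 highest, and the groups were separated by a gap of only 0.342% of the lowest WT value. *Prg4* averaged 526 ± 141 CPM over the WT samples (SD, n = 4) and 365 ± 36.9 CPM over the *Trpc1-/-* samples (SD, n = 3). The logFC was −0.53 ± 0.21 (SE), and edgeR gave an adjusted P of 0.475 and DESeq2 one of 0.213. Without WT replicate 1, the logFC was −0.34 ± 0.12 (SE). With the erythroid score as a covariate, the direction turned, with a logFC of 0.15 ± 0.20 (SE).

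*Clu* (chr14:65968483-65981547, plus strand) was at 168, 187.5, 195.1, and 219.7 CPM in WT and at 157.9, 154, and 112.9 CPM in *Trpc1-/-* samples. The groups did not overlap, and *Trpc1-/-* replicate 3 was lowest. The means were 193 ± 21.4 and 142 ± 24.9 CPM (SD, n = 4 and 3), with a logFC of −0.44 ± 0.15 (SE) and an adjusted P of 0.433 by edgeR and 0.126 by DESeq2. Without WT replicate 1, the adjusted P of *Clu* was 0.151 by edgeR and 0.00645 by DESeq2, in a DESeq2 fit that called 2.29% of all genes lower.

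Among the adaptor proteins, *Comp* (chr8:70373558-70382066, plus strand), a pentamer of the thrombospondin family, was at 514, 644.1, 663.2, and 489.8 CPM in WT and at 477.2, 463.8, and 357.2 CPM in *Trpc1-/-* samples. WT replicates 1 and 4 lay just above the highest *Trpc1-/-* sample, with a gap of 2.57% of the lowest WT value. The means were 578 ± 88.5 and 433 ± 65.8 CPM (SD, n = 4 and 3), and the logFC was −0.42 ± 0.16 (SE), and edgeR gave an adjusted P of 0.474 and DESeq2 one of 0.212. Without WT replicate 1, the adjusted P of *Comp* was 0.203 by edgeR and 0.0276 by DESeq2, where DESeq2 called 2.29% of all genes lower.

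*Matn1* (chr4:130944385-130955475, plus strand), whose product is abundant in growth plate and tracheal cartilage, was the least abundant member, with 57, 314, 463, and 295 counts in WT and 110, 185, and 134 counts in *Trpc1-/-* samples. These correspond to 1.201, 2.97, 3.77, and 3.75 CPM in WT and 0.898, 1.99, and 1.37 CPM in *Trpc1-/-* samples. WT replicate 1 was as low as the *Trpc1-/-* samples, and the groups overlapped. Its logFC of −1.05 ± 0.43 (SE) was the largest in size of the 10 genes and also had the largest error, with an adjusted P of 0.487 by edgeR and 0.250 by DESeq2. Without WT replicate 1, the logFC was −1.31 ± 0.28 (SE), and edgeR gave an adjusted P of 0.119 and DESeq2 one of 0.000437. With the chondrocyte score as a covariate, it was −0.29 ± 0.56 (SE).

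*Matn3* (chr12:8947929-8972028, plus strand), in which mutations cause skeletal dysplasia in humans, was at 45.2, 99.05, 110.0, and 103.3 CPM in WT and at 51.7, 86.0, and 65.1 CPM in *Trpc1-/-* samples. WT replicate 1, which was also low in *Matn1*, lay below every *Trpc1-/-* sample here, while the other 3 WT samples lay above all of them. The logFC was −0.40 ± 0.31 (SE), and edgeR gave an adjusted P of 0.644 and DESeq2 one of 0.610. Without WT replicate 1, it was −0.62 ± 0.17 (SE), with an adjusted P of 0.154 by edgeR and 0.00421 by DESeq2, and without *Trpc1-/-* replicate 1 it was −0.24 ± 0.35 (SE), with an adjusted P of 0.955 by edgeR. Without *Trpc1-/-* replicate 2, it was −0.62 ± 0.35 (SE). With the chondrocyte score as a covariate, the direction turned, with a logFC of 0.13 ± 0.41 (SE).

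*Matn2* and *Matn4* are the matrilins found widely outside cartilage. *Matn2* (chr15:34306677-34436273, plus strand) was at 39.0, 36.9, 35.2, and 21.4 CPM in WT and at 31.4, 32.6, and 26.0 CPM in *Trpc1-/-* samples. The lowest value belonged to WT replicate 4, and all *Trpc1-/-* samples fell within the WT range. The logFC was −0.14 ± 0.20 (SE), and edgeR gave an adjusted P of 0.805. It depended on single samples, with −0.30 ± 0.11 (SE) and an adjusted P of 0.444 by edgeR without WT replicate 4, −0.057 without WT replicate 1, and −0.048 without *Trpc1-/-* replicate 3. *Matn4* (chr2:164389393-164405160, minus strand) was at 13.9, 7.33, 7.95, and 4.94 CPM in WT and at 7.17, 9.19, and 4.98 CPM in *Trpc1-/-* samples. WT replicate 1 was highest, and the *Trpc1-/-* samples again fell within the WT range. The logFC was −0.25 ± 0.35 (SE), and edgeR gave an adjusted P of 0.796, and without WT replicate 1 the direction turned, with a logFC of 0.073 ± 0.25 (SE). It was −0.49 without *Trpc1-/-* replicate 2, −0.44 without WT replicate 4, and −0.054 without *Trpc1-/-* replicate 3.

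*Fn1* (chr1:71585520-71653200, minus strand) was at 3650, 3048, 2749, and 2550 CPM in WT and at 2191, 2636, and 2025 CPM in *Trpc1-/-* samples. *Trpc1-/-* replicates 1 and 3 lay below every WT sample, and *Trpc1-/-* replicate 2 lay just above the lowest. The means were 2999 ± 480 and 2284 ± 316 CPM (SD, n = 4 and 3), and the logFC was −0.39 ± 0.17 (SE), with an unadjusted P of 0.0510 and an adjusted P of 0.499 by edgeR and 0.231 by DESeq2. With the erythroid score as a covariate, the logFC was 0.028 ± 0.19 (SE). *Prg4*, *Matn2*, *Matn4*, and *Fn1* each overlap a gene on the other strand, and the libraries were stranded.

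Within the samples of the 1300s alone, 3 *Trpc1-/-* and 2 WT, all 10 genes were again lower. There, the logFC was −0.74 for *Prg4*, −0.33 for *Clu*, −0.42 for *Comp*, and −0.55 for *Fn1*. It was −0.58 for *Matn1* and −0.096 for *Matn3*, both smaller in size than over all samples, and −0.34 for *Matn2* and −0.57 for *Matn4*, both larger. Of the 2 WT samples in this comparison, 1 is WT replicate 1, in which *Matn1* and *Matn3* were low and *Matn2* and *Matn4* high. The 1700s hold WT samples only.

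**Figure D4:**
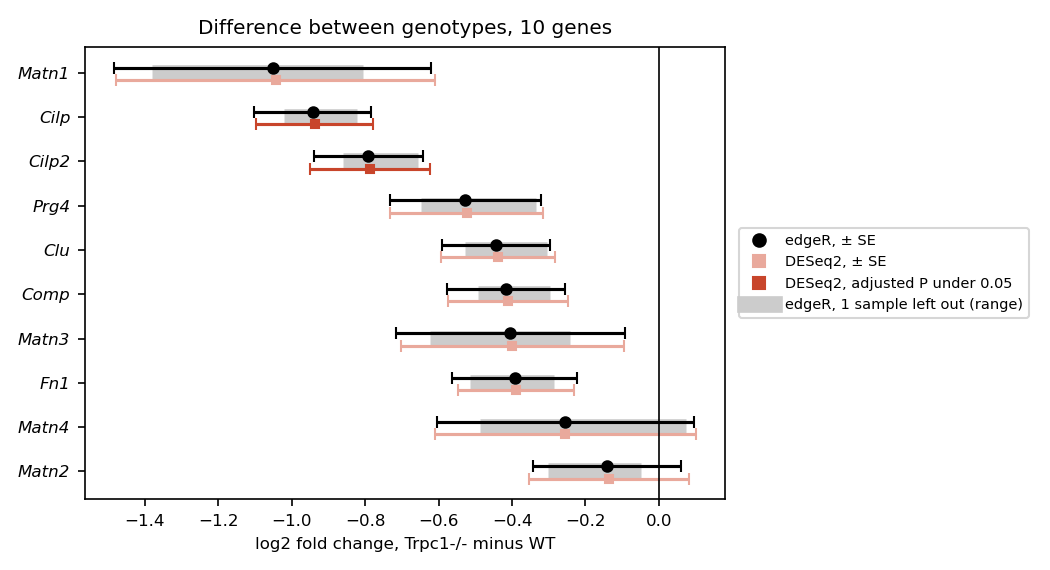
The logFC of each gene, *Trpc1-/-* minus WT, with its SE, from edgeR (circles) and DESeq2 (squares, dark where the adjusted P is under 0.05), with gray bars for the range of edgeR's logFC when each sample is left out in turn. *Cilp* stays between −1.02 and −0.82 and *Cilp2* between −0.86 and −0.66, while the bar of *Matn4* crosses 0.

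The question of surface against deep cartilage was addressed with ratios of genes within a sample, which do not depend on the scaling of the libraries. The mean log2 CPM of *Prg4* and *Clu* minus that of *Matn1* and *Matn3* was 5.55, 4.15, 3.75, and 4.06 in WT and 5.03, 4.21, and 4.46 in *Trpc1-/-* samples. *Prg4* and *Clu* did not vary together within the groups, as given below, so their mean is not a common surface signal in these samples. The *Trpc1-/-* samples fell within the WT range, and the means differed by 0.19 (*Trpc1-/-* minus WT). The overlap rested on WT replicate 1, the highest of all samples. Without it, the difference was 0.58 and the *Trpc1-/-* samples lay above the other 3 WT samples. Without WT replicate 3 or *Trpc1-/-* replicate 1, the difference was −0.020 or −0.045, and within the 1300s it was −0.28, so that its direction was not settled by these samples. The log2 ratio of *Prg4* to *Matn1* differed by 0.48 with overlapping groups, and by 1.02 without overlap when WT replicate 1 was left out. The log2 ratio of *Prg4* to *Matn3* differed by −0.14 and that of *Prg4* to *Comp* by −0.080, and without WT replicate 1 they differed by 0.32 and 0.14, with overlap in each case. The log2 ratio of *Cilp* to *Comp* was −0.076, −0.28, −0.29, and 0.52 in WT and −0.55, −0.59, and −0.51 in *Trpc1-/-* samples. Here the 3 *Trpc1-/-* samples were alike and all lay below the WT samples, with a difference of −0.52 between the means. With any 1 sample left out, the difference lay between −0.61 and −0.34, the latter without WT replicate 4. Groups that are apart over all samples cannot come to overlap in this way. The ratio to *Comp* was lower without overlap in 0.0974% of all other genes tested. *Comp* was itself lower in every *Trpc1-/-* sample, which raises the ratios of other genes to it and keeps this share small. By level alone, 6.42% of all genes were lower without overlap.

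**Figure D5:**
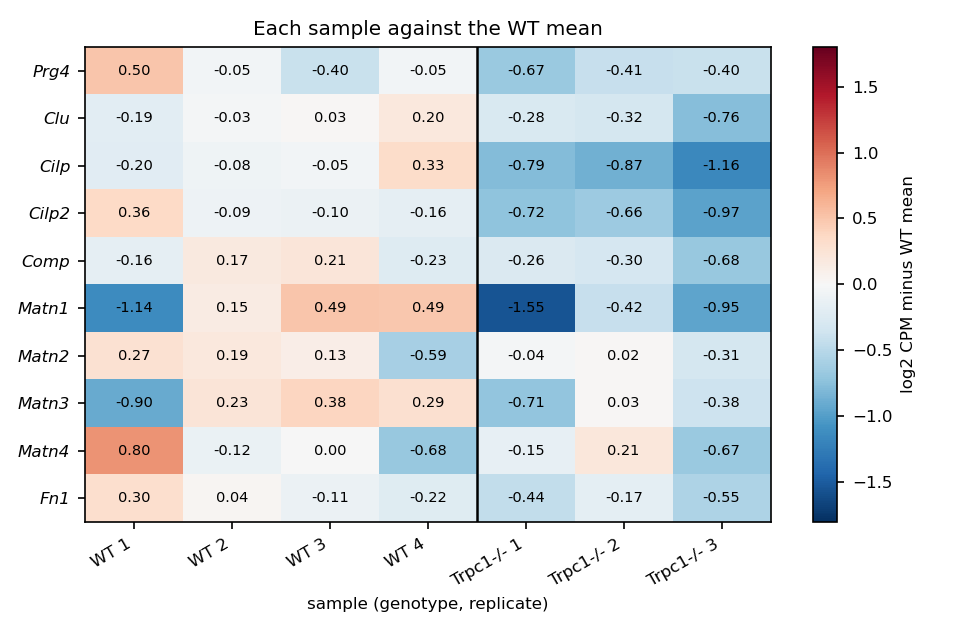
Log2 CPM of each gene in every sample minus its WT mean, printed in each cell and colored from blue (lower) to red (higher). The *Cilp* and *Cilp2* rows are at or below −0.66 in every *Trpc1-/-* sample, and WT replicate 1 stands out low in *Matn1* (−1.14) and *Matn3* (−0.90) and high in *Matn4* (0.80).

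The genes also varied within the groups, in ways described by the correlation of their deviations from the group means in log2 CPM over the 7 samples, which share WT replicate 1 as the most distant sample. *Matn1* and *Matn3* were the most alike, with r = 0.99, and 0.98 without WT replicate 1. *Clu* and *Cilp* followed each other with r = 0.92, and 0.89 without WT replicate 1. *Cilp2* varied with *Matn4* (r = 0.94, and 0.87 without WT replicate 1) and with *Fn1* (r = 0.90, and 0.80 without WT replicate 1). The paralogs *Cilp* and *Cilp2* did not vary together, with r = −0.24 over the 7 samples and 0.42 without WT replicate 1. Nor did *Prg4* and *Clu*, the genes averaged as surface genes above, with r = −0.50, and −0.23 without WT replicate 1. Among 9762 genes with a mean over 10 CPM, the genes most like *Cilp* within the groups were *Cdk7*, *Ptpn9*, and *Atmin* (r = 0.97 to 0.98), and those most like *Cilp2* were *Prkg1*, *Mprip*, and *Vegfa* (r = 0.99). *Cnmd*, which codes for the cartilage protein chondromodulin, was among the 3 genes most like both *Matn1* and *Matn3*, together with *Insig1* and *Plvap* (r = 0.99 to 1.00). For *Prg4* these were *Tspoap1*, *1810013L24Rik*, and *Ulk1*, for *Clu* *Pdpk1*, *Spata2*, and *Tyw1*, and for *Comp* *Rag1*, *Itgb1*, and *Capn2*. For *Matn2* they were *Ercc2*, *Gm21451*, and *Sod3*, and for *Matn4* *Irgq*, *Zfp639*, and *Aopep*. With 7 samples and this many genes, such values describe these libraries only.

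Genes around the 10 members were then counted in lists, none of which had a member at an adjusted P under 0.05 by edgeR. Over all genes tested, 51.9% were lower, and 5.49% were lower at an unadjusted P under 0.05 by edgeR. DESeq2 called 0.828% of all genes lower at an adjusted P under 0.05. The 8 osteoblast markers were all lower as well, with a median logFC of −0.31, so lower values were not particular to these lists. Of 13 genes of the superficial zone and their regulators, 12 were tested (all but *Gdf5*), and 11 were lower and 1 was higher in the knockout, and the median logFC was −0.24. Besides *Prg4* and *Clu*, *Vit* (vitrin) and the TGF-β signal transducer *Smad3* had an unadjusted P under 0.05, with a logFC of −0.40 and −0.24, and DESeq2 called *Vit*, with an adjusted P of 0.00792. All 13 deep-zone and growth plate genes were lower, with a median logFC of −0.40. These include the cell-binding protein gene *Chad*, with a logFC of −0.74 and an adjusted P of 0.00267 by DESeq2, and the PTHrP receptor *Pth1r*, with −0.33 and an unadjusted P of 0.0328 by edgeR. The most abundant of this list, *Ibsp* and *Col10a1*, at 253 and 209 CPM per kilobase in WT, had a logFC of −0.16 and −0.65 and overlapped between the groups.

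All 5 thrombospondins were lower, with a median logFC of −0.42. *Thbs3* had a logFC of −0.63 and an adjusted P of 0.00907 by DESeq2, and *Thbs1*, the most abundant after *Comp* at 72.1 CPM per kilobase in WT, had a logFC of −0.17. Of the collagens and proteoglycans that COMP and matrilins bind, all 12 were lower, with a median logFC of −0.45. *Prelp*, which codes for a small leucine-rich proteoglycan, had a logFC of −0.58 and an adjusted P of 0.0411 by DESeq2. *Col9a3*, *Col11a2*, and *Col9a2* had an unadjusted P under 0.05, with a logFC of −0.58, −0.54, and −0.60. The most abundant, *Col2a1* and *Dcn*, at 322 and 170 CPM per kilobase in WT, had a logFC of −0.48 and −0.33 and overlapped between the groups. In the growth plate list, *Chad* and *Snorc*, and in the list of collagens and proteoglycans, 5 genes are also chondrocyte markers, whose sum was low in *Trpc1-/-* replicates 1 and 3, and its part in these counts was not tested.

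Cell-surface receptors of fibronectin, lubricin, and clusterin were lower in 8 and higher in 4 of 12 genes, with a median logFC of −0.032. *Vldlr*, a receptor of the LDL family, had the only unadjusted P under 0.05, with a logFC of −0.49, and the most abundant, the integrins *Itgb1* and *Itgb3*, had a logFC of −0.034 and −0.059. All 11 proteases that cleave these proteins were lower, with a median logFC of −0.32. *Adamts4*, an aggrecanase, averaged 4.77 ± 0.106 CPM over the WT samples (SD, n = 4) and 2.61 ± 0.342 CPM over the *Trpc1-/-* samples (SD, n = 3). The difference amounted to a logFC of −0.87 ± 0.13 (SE) and had an adjusted P of 0.334 by edgeR and 8.74e-07 by DESeq2. *Htra3* had a logFC of −0.53 and an adjusted P of 0.0310 by DESeq2, and *Mmp14* a logFC of −0.32 and an unadjusted P of 0.0394. The most abundant, *Mmp9* and *Mmp13*, at 148 and 85.1 CPM per kilobase in WT, had a logFC of −0.13 and −0.056. All 7 TGF-β and IGF-1 ligand and receptor genes listed around CILP were lower, with a median logFC of −0.17. *Tgfb3* and *Tgfb2* had an unadjusted P under 0.05, with a logFC of −0.33 and −0.42, DESeq2 called none, and the most abundant, the receptors *Tgfbr2* and *Tgfbr1*, had a logFC of −0.054 and −0.022.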

How the data were processed

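Ribosomal RNA was depleted and stranded libraries were sequenced from both ends. Per the submitters' processing notes and the Methods, the authors trimmed adapters with Cutadapt 2.5, aligned reads to GRCm38 with HISAT2 2.1.0, and estimated coverage with StringTie 2.0.3. What the authors deposited are estimated counts, derived from that coverage for each gene, not normalized and already whole, so rounding left each unchanged. GENCODE M21 gave gene positions and exon lengths, in which 55141 of 55401 gene IDs were found. A gene had to exceed 1 CPM in 2 or more samples to be tested (16429 genes). The quasi-likelihood test of edgeR 4.0.16 (R 4.3.3) was applied after TMM scaling. Genotype was the only term, and P values were adjusted by Benjamini-Hochberg over all tested genes, with 0.05 as the threshold. Standard errors come from the F statistic. DESeq2 1.42.0, the study's tool, ran with default settings on the same genes. CPM values are TMM-normalized. Floors of 3 counts cover counting error only.

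The labels give 4 WT and 3 *Trpc1-/-* samples, the Methods 3 and 4, and the labels were used. The labels name the samples as biological replicates, and the pooling of 2 to 3 knees per sample is given by the Methods alone. The genes and lists were chosen with earlier results of these data known. The text names all 10 genes, and of each list the genes with an unadjusted P under 0.05 and the 2 most abundant per length, and for each of the 10 the 3 genes most like it. The genes most like *Fn1* are not reported here. The alternatives were DESeq2, limma-voom (limma 3.58.1), other normalizations and filters, the replicate block, the mouse number series, the erythroid and chondrocyte scores as covariates, and leaving out single samples. The leave-one-out and blocked fits of DESeq2 were added after the data were seen. The fits were first tested on simulated data. The published fold changes, protein sequences, immunostaining, and cell culture were not used here.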

Additional observations from a re-analysis of the deposited data

Results flagged for a closer look

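In a test for a single distant sample, which by chance points to about 1 in 20 groups, the 4 WT values of each of the 10 genes were examined, and 2 stood out. The share of all tested genes that stand out in this way was not counted. The count of 2 therefore does not set these 10 genes apart from other genes. For *Cilp2*, WT replicate 1 was at 68.1 CPM, and its gap to the next WT sample was 0.888 of the group's range and thus past Dixon's critical value for 4 samples. For *Matn3*, WT replicate 1 was at 45.17 CPM, below the other WT samples, with a gap of 0.83 of the range that lies just past the same critical value. Both values belong to the library that also had the lowest total count and the highest share of *mt-Rnr2*, at 19.6% of its counts against 12.3% to 15.4% in the other samples. Groups of 3 were not examined in this way.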

How the results depend on the processing

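The number of the 10 genes called at an adjusted P under 0.05 was 0 by edgeR and 2 by DESeq2, with or without the replicate block in DESeq2. Leaving out 1 sample at a time, edgeR called 0 to 2 genes (2 without WT replicate 1) and DESeq2 called 1 to 6. These were 1 without *Trpc1-/-* replicate 3, where 0.0855% of all genes were called lower, 6 without WT replicate 1, where 2.29% were, and 2 in each other case, where 0.147% to 1.24% were. The number at an unadjusted P under 0.05, 6 in the fit reported, was 2 by edgeR with the chondrocyte score as a covariate. When 1 sample was left out, it ranged from 2 to 7 by edgeR (3 without WT replicate 2, 2 without *Trpc1-/-* replicate 3). By DESeq2 it ranged from 4 to 8. The share of all genes under this P was counted only for the fit reported. With the erythroid score as a covariate, 6 of the 10 genes were lower, and the logFC turned to 0.15 for *Prg4*, 0.065 for *Matn2*, 0.72 for *Matn4*, and 0.028 for *Fn1*. With the chondrocyte score, *Matn3* turned to 0.13. Without WT replicate 1, *Matn4* turned to 0.073 by edgeR and 0.078 by DESeq2, and its logFC ranged from −0.49 to 0.078 when 1 sample was left out. The surface minus deep contrast, 0.19 over all samples, ranged from −0.045 to 0.58 when 1 sample was left out. The cause of these changes was not tested. Of 260 values for single genes under 26 alternatives, 230 kept their direction and their side of the threshold, 23 were newly called, and 7 turned direction. *Cilp* was called in 10 and *Cilp2* in 9 of the 26, of which all but 1 each were fits of DESeq2. The labels number replicates 1 to 3 in both groups, but same-numbered samples did not deviate together (r of their deviations from the group means −0.364, −0.219, and −0.0411), so the numbers were not taken as pairs. The replicate block was fitted, in both tools, to replicates 1 to 3 of each group, and so without WT replicate 4. With it, edgeR called 0 of the 10 genes, 4 had an unadjusted P under 0.05, and the logFC was −0.83 for *Cilp* and −0.84 for *Cilp2*. Leaving out WT replicate 4 without a block gave −0.82 and −0.85 by edgeR. Depth limits *Matn1* the most, with 57 counts in its lowest library.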

Other observations

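Further ratios within a sample were computed after the values had been seen. The log2 ratio of *Cilp* to *Col2a1*, the major collagen gene of cartilage, was −2.76, −2.48, −2.44, and −1.94 in WT and −2.16, −3.41, and −2.76 in *Trpc1-/-* samples, a difference of −0.37 with overlapping groups. The log2 ratio of *Cilp2* to *Col2a1* differed by −0.21, also with overlap, and in both ratios *Trpc1-/-* replicate 2 was lowest and *Trpc1-/-* replicate 1 among the highest. Those of *Prg4*, *Matn3*, and *Matn1* to *Col2a1* differed by 0.072, 0.22, and −0.40, with overlap in each. Between the paralogs *Cilp* and *Cilp2*, the log2 ratio differed by −0.16, and between *Prg4* and *Clu* by −0.043. For *Cilp* to *Prg4*, the difference was −0.44, and those of *Cilp* and *Comp* to *Matn3* differed by −0.59 and −0.064, again with overlap in each.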
